A study of Mus musculus with 16 samples.

Results

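The genes described here are 10 genes of lymphocytes and of antibody production (Ptprc, Cd3e, Cd3g, Cd4, Cd8a, Nkg7, Cd79a, Ighm, Igkc and Jchain), taken by symbol from a table of 47643 mouse genes, of which 21223 were above 0 in at least 1 sample. They were followed in RNA from the tibialis anterior, a hindlimb muscle, in 16 samples, labelled male, in 4 groups of 4. WT and UBR4 mKO mice of the C57BL6/J strain were each taken at an age of 6 and of 24 months. All 4 groups carried floxed Ubr4 alleles (fl/fl) and received tamoxifen at 3 months of age. The UBR4 mKO mice also carried an inducible Cre driven by the skeletal muscle promoter ACTA1, which directs the deletion to myofibers and not to blood or immune cells. The question of the genotype comparison was what loss of the ubiquitin ligase UBR4 does to young and to old muscle.

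A whole muscle holds few lymphocytes among its myofibers. T cells sense antigen through a receptor whose signal is carried by the CD3 chains, with CD4 or CD8 as a coreceptor, and B cells do so through a membrane antibody coupled to CD79A. Plasma cells, the B cells that secrete antibody, transcribe an assembled heavy chain and an assembled light chain, each made of a V segment joined to a constant gene, at very high rates, so a small number of them can supply most antibody RNA of a tissue. The cells of a plasma cell clone share the same heavy and light V segments.

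The highest V segments of 3 samples are shown here, because these were the samples with the highest Igkc and Jchain. They were chosen after their values had been seen. Each sequence is the last 60 bases of the annotated germline segment, in GENCODE vM21 on GRCm38, with the last in-frame cysteine codon in capitals. That cysteine opens the CDR3, the part of the antibody that differs most between clones.
Igkv3-2: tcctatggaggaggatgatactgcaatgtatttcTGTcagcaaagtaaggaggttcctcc
Igkv8-21: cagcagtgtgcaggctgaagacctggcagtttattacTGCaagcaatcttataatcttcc
Igkv1-117: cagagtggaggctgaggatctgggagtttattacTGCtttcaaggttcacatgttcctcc
Ighv1-42: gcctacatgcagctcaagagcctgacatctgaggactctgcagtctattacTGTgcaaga
Ighv1-63: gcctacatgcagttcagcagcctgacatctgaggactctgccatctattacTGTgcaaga
Ighv5-17: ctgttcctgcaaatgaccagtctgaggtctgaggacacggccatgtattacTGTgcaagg

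The stretches lie at chr6:70699008-70699067 on the plus strand (Igkv3-2), chr6:70314895-70314954 on the minus strand (Igkv8-21) and chr6:68121768-68121827 on the plus strand (Igkv1-117), all in the kappa light chain locus. The heavy chain stretches lie at chr12:114937113-114937172 (Ighv1-42), chr12:115495625-115495684 (Ighv1-63) and chr12:113859149-113859208 (Ighv5-17), all on the minus strand. Igkv3-2 and Ighv1-42 were the highest segments of the first 24-month-old UBR4 mKO sample, Igkv8-21 and Ighv1-63 those of the fourth, and Igkv1-117 and Ighv5-17 those of the second 6-month-old WT sample.

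Every value is a TPM value deposited by the authors, which divides the reads of a gene by its length and scales each sample to a sum of 1000000, so the number of reads behind a value is unknown. For the tests, log2(TPM + 0.1) was fitted with limma over the 14453 genes with a mean of at least 0.1 TPM, and a gene was called at a Benjamini-Hochberg adjusted p under 0.05. Of the 10 genes, 6 passed this filter (Ptprc, Nkg7, Cd79a, Ighm, Igkc and Jchain) and 4 did not (Cd3e, Cd3g, Cd4 and Cd8a). The added 0.1 TPM understates fold changes at such low levels. Single values were set against each other by a two-sided exact permutation test, whose smallest p for 4 against 4 samples is 0.0286.

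Some facts of the whole series bear on these values. Ubr4, the targeted gene, was at 9.09 to 15.7 TPM in 6-month-old WT and 4.91 to 6.54 TPM in UBR4 mKO muscles, and at 17.0 to 21.1 and 4.28 to 14.6 TPM at 24 months. The highest of these UBR4 mKO values, that of 24-month-old replicate 2, lay within the range of 6-month-old WT muscles, and leaving that sample out changed no call of Ptprc, Ighm, Igkc or Jchain given here. Mitochondrial genes took up 52.6 to 59.7% of TPM in 6-month-old WT muscles and 46.1 to 51.7% in the other groups. In UBR4 mKO against WT at 6 months the median gene tested was higher by 0.341 on the log2 scale, and at 24 against 6 months in WT by 0.26. The 6-month-old UBR4 mKO replicate 4 went against its male label, with 23.8 TPM of Xist, the RNA of the inactive X chromosome, and 0.00637 to 0.0823 TPM of 4 Y-linked genes. Xist was at 0.711 to 13.0 TPM in the other 7 samples of 6 months, which also had 2.29 to 22.6 TPM of the Y-linked Ddx3y, and at most at 0.0252 TPM in the 8 samples of 24 months. Whether each of the 7 samples with both kinds of RNA came from a single mouse could not be checked, and n counts deposited samples throughout. In the age comparisons, age and this difference in Xist cannot be told apart.

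The antibody genes were abundant and the 4 T cell genes were nearly absent. Over the 16 samples Ighm, the constant gene of the IgM heavy chain (chromosome 12, 113418558 to 113422730), averaged 62.7 TPM and ranked 932 of the 14453 genes tested. Igkc, the constant gene of the kappa light chain (chromosome 6, 70726435 to 70726966), averaged 14.6 TPM. Jchain, which links IgM and IgA units into polymers, averaged 0.68 TPM and Ptprc, which encodes the CD45 phosphatase of all leukocytes, 0.511 TPM. Cd79a and Nkg7, a granule gene of cytotoxic cells, averaged 0.295 and 0.127 TPM. Cd3g (0.0848 TPM), Cd4 (0.063 TPM), Cd3e (0.0327 TPM) and Cd8a (0.0254 TPM) came last. The neighbours Jchain, Ptprc and Cd79a overlapped widely in their values over samples, as did Cd3g, Cd4, Cd3e and Cd8a.

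**Figure D1:**
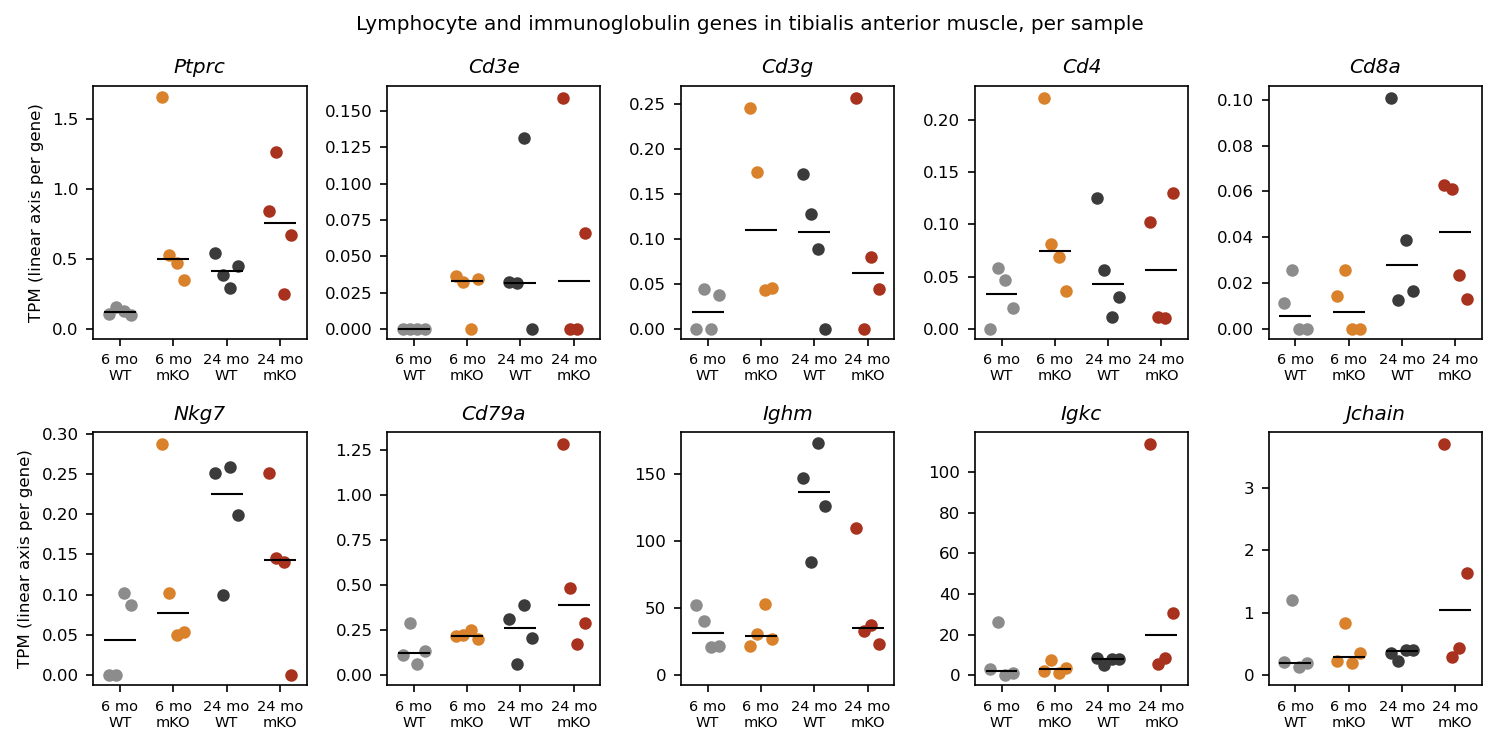
TPM of the 10 genes in each of the 16 samples, on a linear axis of its own for each gene, in the groups 6-month WT, 6-month UBR4 mKO (mKO), 24-month WT and 24-month UBR4 mKO. Points are samples in the order of replicates 1 to 4 and lines are group medians. The median of Ighm was highest in WT muscles of 24 months, although the first UBR4 mKO sample of that age (109.9 TPM) lay above WT replicate 2 (84.46 TPM). The first UBR4 mKO sample of 24 months was highest for Igkc, Jchain and Cd79a.

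Ptprc was the only one of the 10 genes to pass a test between genotypes, and it was higher in UBR4 mKO muscles at 6 months. Its values in 6-month-old WT muscles were 0.109, 0.155, 0.130 and 0.0975 TPM. In 6-month-old UBR4 mKO muscles they were 1.66, 0.526, 0.471 and 0.347 TPM, so every UBR4 mKO sample lay above every WT sample. The means were 0.123 ± 0.0252 and 0.75 ± 0.609 TPM (SD, n = 4 each), and the log2 fold change was 1.72 (standard error, SE, 0.394, limma adjusted p = 0.0044). The first UBR4 mKO sample was far above the rest. Without it the log2 fold change was 1.29 (limma adjusted p = 0.0128), and without replicate 4, whose Xist level went against its label, it was 1.95 (limma adjusted p = 0.00423). When samples were rescaled by median-of-ratios factors, which remove the shift of the median gene, the log2 fold change was 1.49 (limma adjusted p = 0.0181).

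At 24 months the Ptprc values were 0.543, 0.386, 0.291 and 0.446 TPM in WT and 0.839, 1.26, 0.249 and 0.669 TPM in UBR4 mKO muscles. The groups overlapped, because the third UBR4 mKO sample lay below all WT samples. The log2 fold change was 0.59 (SE 0.394, limma adjusted p = 0.683). The difference between the UBR4 mKO effects at the 2 ages was -1.12 on the log2 scale (SE 0.558, limma adjusted p = 0.197) and did not pass the test.

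Between 6 and 24 months in WT muscles Ptprc rose from 0.123 ± 0.0252 to 0.416 ± 0.106 TPM (SD, n = 4 each), without overlap of the groups. The log2 fold change was 1.2 (SE 0.394, limma adjusted p = 0.0427). This call was close to its threshold and was lost in 14 of 26 alternatives, among them median-of-ratios scaling (1.03, limma adjusted p = 0.111). Of the samples left out singly, 24-month-old WT replicates 1, 2 and 4, 6-month-old WT replicates 1, 3 and 4 and 6-month-old UBR4 mKO replicates 2 and 3 each ended it, with log2 fold changes of 1.08 to 1.22. The permutation test gave p = 0.0286 (exact, two-sided). In UBR4 mKO muscles the means at 6 and 24 months were 0.75 ± 0.609 and 0.755 ± 0.42 TPM (SD, n = 4 each).

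As CD45 is on all leukocytes, the genes of other leukocytes are given beside it. Among 13 genes of macrophages and monocytes in the table, 11 were higher in UBR4 mKO muscles at 6 months and 0 lower, where 38.8% of all genes tested were called, with a median log2 fold change of 1.72 against 0.341 over all genes tested. Cd68, a lysosomal protein of macrophages, rose from 0.567 ± 0.108 to 5.18 ± 3.73 TPM (SD, n = 4 each; log2 fold change 2.77, SE 0.431, limma adjusted p = 0.000363). Lyz2, the lysozyme of myeloid cells, rose from 14.9 ± 2.6 to 69.7 ± 45.5 TPM (SD, n = 4 each), while Ccr2, a chemokine receptor of monocytes, had a log2 fold change of 2.1. The summed level of the list was 21.9 to 33.4 TPM in WT and 69.5 to 248 TPM in UBR4 mKO muscles, with no gene of it at 0 in all samples of either group. Among the samples of 6 months the highest was the same for Ptprc, Lyz2 (138 TPM) and Cd68 (10.7 TPM), namely UBR4 mKO replicate 1. Over all 16 samples Lyz2 (255 TPM) and Cd68 (14.8 TPM) were highest in 24-month-old UBR4 mKO replicate 2, where Ptprc was at 1.26 TPM. The macrophage count was 7 with median-of-ratios scaling and 11 both without replicate 1 and without replicate 4.

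All 7 genes of MHC class II antigen presentation were also higher at 6 months in UBR4 mKO muscles (median log2 fold change 1.82), and 6 were with median-of-ratios scaling, without UBR4 mKO replicate 1 or without UBR4 mKO replicate 4. H2-Eb1, a class II beta chain, rose from 8.82 ± 3.02 to 32.8 ± 13.6 TPM (SD, n = 4 each), H2-Aa, an alpha chain, had a log2 fold change of 1.85, and H2-DMb1, which helps to load peptides, one of 1.87. Summed levels were 28.0 to 54.7 TPM in WT and 101 to 232 TPM in UBR4 mKO muscles. Between 6 and 24 months in WT muscles, 3 of the 13 macrophage genes (Cd68, Ccr2 and Lyz2) and 2 of the 7 class II genes (H2-DMb1 and H2-Eb1) were called higher, where 19.6% of all genes tested were called, and the summed macrophage level at 24 months was 38.2 to 85.8 TPM. With median-of-ratios scaling and when rescaled without mitochondrial genes limma called 2 macrophage genes and 0 class II genes, with 1 and 3 class II genes at an unadjusted p under 0.05. These age counts were 7 and 5 without 6-month-old UBR4 mKO replicate 1 and 5 and 4 without 6-month-old WT replicate 2, and the class II count was 1 without 24-month-old UBR4 mKO replicate 1. The call of H2-Eb1 was lost in 17 of 27 alternatives and those of H2-DMb1 and Lyz2 in 9 of 27 each, and all 3 were lost without 24-month-old WT replicate 1, 2 or 4 or 6-month-old WT replicate 1 or 4. In UBR4 mKO against WT at 24 months limma called 0 of the 13 macrophage and 0 of the 7 class II genes, with 6 and 2 at an unadjusted p under 0.05 against 10.5% of all genes. The part of macrophages in the Ptprc values was not tested. RNA came from whole muscle, so more cells of a type and more RNA per cell cannot be told apart.

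**Figure D2:**
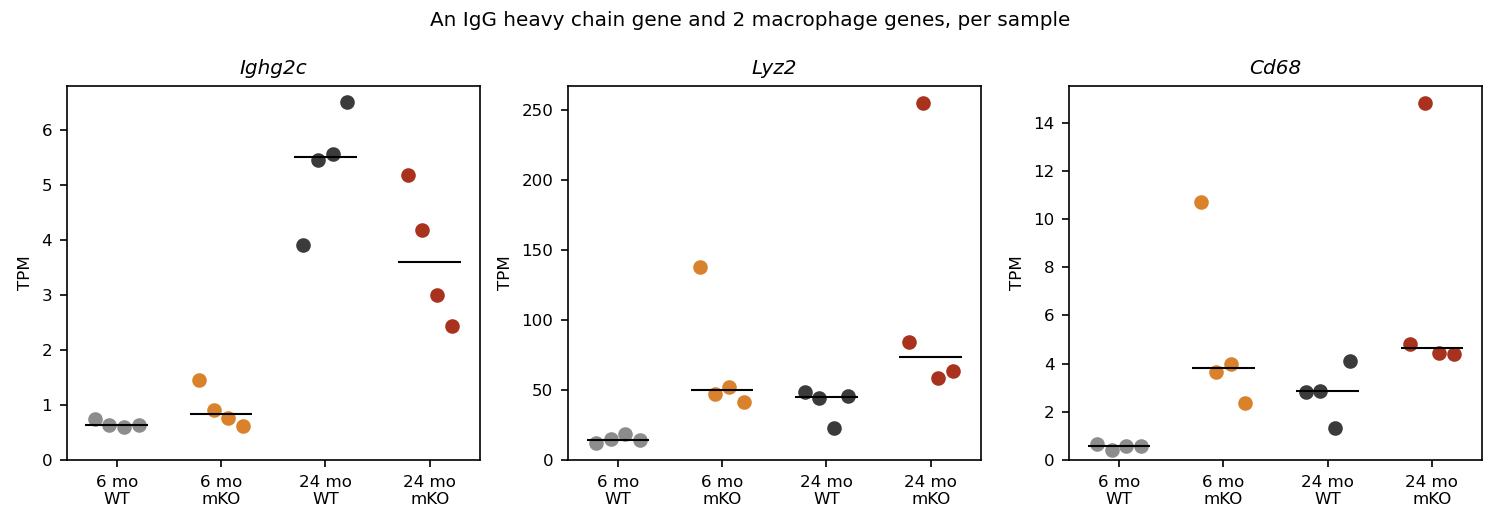
TPM (linear axes from 0) of Ighg2c, the constant gene of the IgG2c heavy chain, and of the macrophage genes Lyz2 and Cd68 in each sample of the 4 groups. Points are samples in the order of replicates 1 to 4 and lines are medians. Ighg2c lay at 0.598 to 1.46 TPM in the 8 samples of 6 months and at 2.43 to 6.51 TPM in the 8 samples of 24 months, and Lyz2 and Cd68 in UBR4 mKO muscles lay above those in WT muscles of the same age, although limma called neither at 24 months.

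The 4 T cell genes were at or near 0 in every group. Cd3e, the epsilon chain of CD3, was listed at 0 in all 4 WT samples of 6 months. It was at 0.0365, 0.0324, 0 and 0.0341 TPM in the UBR4 mKO samples of 6 months. In WT samples of 24 months it was at 0.0320, 0.0315, 0.132 and 0 TPM, and in the UBR4 mKO samples of that age at 0.159, 0, 0 and 0.0661 TPM. In all it was above 0 in 8 of 16 samples, and at 6 months 3 of the 4 UBR4 mKO samples but none of the WT samples had a value (exact permutation test, two-sided, p = 0.143).

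Cd3g, the gamma chain of CD3, was above 0 in 12 samples. Its values at 6 months were 0, 0.0439, 0 and 0.0372 TPM in WT and 0.245, 0.174, 0.0431 and 0.0457 TPM in UBR4 mKO muscles, which overlapped in a single pair of samples (exact permutation test, two-sided, p = 0.0571). At 24 months they were 0.172, 0.127, 0.0883 and 0 TPM in WT and 0.257, 0, 0.0799 and 0.0444 TPM in UBR4 mKO muscles, and the groups overlapped.

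Cd4, the coreceptor of helper T cells that is also made by some macrophages and dendritic cells, was above 0 in 15 samples. At 6 months it was at 0, 0.0582, 0.0463 and 0.0198 TPM in WT and at 0.221, 0.0807, 0.0687 and 0.0364 TPM in UBR4 mKO muscles (exact permutation test, two-sided, p = 0.0857). At 24 months WT muscles had 0.125, 0.0561, 0.0117 and 0.0301 TPM and UBR4 mKO muscles 0.102, 0.0110, 0.0106 and 0.130 TPM, and the groups overlapped throughout.

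Cd8a, the coreceptor of cytotoxic T cells, was the lowest of the 10 genes. At 6 months it was at 0.0114, 0.0258, 0 and 0 TPM in WT and at 0.0144, 0.0256, 0 and 0 TPM in UBR4 mKO muscles. At 24 months it was at 0.101, 0.0124, 0.0390 and 0.0167 TPM in WT and at 0.0629, 0.0610, 0.0235 and 0.0131 TPM in UBR4 mKO muscles, above 0 in all 8 samples. The age difference did not pass the permutation test in either genotype (exact, two-sided, p = 0.114 in WT and 0.143 in UBR4 mKO muscles).

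Nkg7 was listed at 0 in 3 samples. Its values at 6 months were 0, 0, 0.102 and 0.0872 TPM in WT and 0.287, 0.102, 0.0505 and 0.0535 TPM in UBR4 mKO muscles. At 24 months they were 0.251, 0.0990, 0.258 and 0.199 TPM in WT and 0.250, 0.146, 0.140 and 0 TPM in UBR4 mKO muscles. In WT muscles 3 of the 4 samples of 24 months lay above all those of 6 months, with a log2 fold change of 1.08 (SE 0.397, limma adjusted p = 0.063). The UBR4 mKO effect had a log2 fold change of 0.56 at 6 months (limma adjusted p = 0.252) and of -0.47 at 24 months (limma adjusted p = 0.793), and their difference, -1.03, did not pass the test (limma adjusted p = 0.23).

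Of 20 further T cell genes, 10 passed the filter, and 4 of these were higher in UBR4 mKO muscles at 6 months, a share close to the 38.8% called over all genes tested. Trac, the constant gene of the T cell receptor alpha chain, had a log2 fold change of 1.53 (limma adjusted p = 0.0065). Zap70, the kinase bound to the CD3 complex, had one of 0.93 (limma adjusted p = 0.0183) and Cd28, a costimulatory receptor, one of 0.56 (limma adjusted p = 0.04). Ctla4, an inhibitory receptor, had one of 1.42, but it passed the filter only through this group, with 0.0644 TPM over the other 12 samples. Its call is thus no support for a change, and Trac, Zap70 and Cd28 are left of the 4. With median-of-ratios scaling Trac and Ctla4 were called and Zap70 and Cd28 were not, Cd28 was lost in 12 of 26 alternatives, and 3 genes were called without UBR4 mKO replicate 1 or without UBR4 mKO replicate 4. The median over the 10 genes was 0.56, against 0.341 over all genes. With age in UBR4 mKO muscles 1 of the 10 genes was called, against 6.49% of all genes tested, and 2 were without 6-month-old UBR4 mKO replicate 1. This gene was Cd27, a receptor of T cells and memory B cells, which rose from 0.342 ± 0.14 to 1.44 ± 0.693 TPM (SD, n = 4 each). With age in WT muscles limma called 0 of the 10 genes (19.6% of all genes), 5 had an unadjusted p under 0.05 (38.8% of all genes), and 3 were called without 6-month-old WT replicate 2. The summed T cell list was at 1.67 to 3.0 TPM in WT and 2.31 to 5.21 TPM in UBR4 mKO muscles at 6 months, and at 3.09 to 4.34 and 3.25 to 7.96 TPM at 24 months. Of 14 further genes of natural killer and cytotoxic cells 5 passed the filter, and Ccl5, a chemokine of these cells, was called at 6 months (log2 fold change 1.82, limma adjusted p = 0.0149), a share of 1 in 5 against 38.8% over all genes. The call of Ccl5 was lost in 4 of 26 alternatives, namely median-of-ratios scaling, rescaling without mitochondrial genes, Dunn tests and leaving out UBR4 mKO replicate 1. V segments of the T cell receptor summed to 0 to 1.51 TPM over 163 segments.

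Ighm rose with age in WT muscles. Its values in 6-month-old WT muscles were 52.1, 40.6, 20.8 and 22.1 TPM, and in 24-month-old WT muscles 147, 84.5, 173 and 126 TPM. All 4 samples of 24 months lay above all 4 of 6 months. The means were 33.9 ± 15.1 and 133 ± 37.5 TPM (SD, n = 4 each), with a log2 fold change of 2.03 (SE 0.407, limma adjusted p = 0.00379; 1.75 and 0.0141 with median-of-ratios scaling). Leaving out any 1 of the 16 samples kept the call, with log2 fold changes from 1.83 to 2.27.

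In UBR4 mKO muscles Ighm was at 21.7, 31.0, 53.0 and 27.3 TPM at 6 months and at 110, 32.7, 37.3 and 23.5 TPM at 24 months. The groups overlapped, and 3 of the 4 samples of 24 months lay within the range of 6 months (log2 fold change 0.43, limma adjusted p = 0.631). Without the first sample of 24 months the value was -0.04. At 24 months all UBR4 mKO samples other than this one lay below all WT samples, with a log2 fold change of -1.6 (SE 0.407, limma adjusted p = 0.0893) and p = 0.0571 in the permutation test (exact, two-sided). Without it the log2 fold change was -2.06 (limma adjusted p = 0.0148). The difference in age effects between the genotypes was -1.6 (SE 0.575, limma adjusted p = 0.107), and -2.06 without this sample (limma adjusted p = 0.0263). The first UBR4 mKO sample of 24 months thus decided whether both differences passed the test. At 6 months Ighm averaged 33.9 ± 15.1 TPM in WT and 33.2 ± 13.7 TPM in UBR4 mKO muscles (SD, n = 4 each).

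Ighg2c, another heavy chain constant gene, was compared in the same way. In WT muscles it was at 0.751, 0.637, 0.598 and 0.631 TPM at 6 months and at 3.91, 5.46, 5.56 and 6.51 TPM at 24 months, a log2 fold change of 2.84 (SE 0.24, limma adjusted p = 2.9e-06). In UBR4 mKO muscles it was at 1.46, 0.911, 0.766 and 0.627 TPM at 6 months and at 5.18, 4.19, 3.0 and 2.43 TPM at 24 months, a log2 fold change of 1.87 (SE 0.24, limma adjusted p = 0.00022). In neither genotype did the ages overlap.

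Of the genes above 0 in every sample, Igkc varied most. In WT muscles it was at 2.89, 26.4, 0.0876 and 1.05 TPM at 6 months and at 8.28, 4.93, 8.08 and 7.88 TPM at 24 months. The WT samples of 24 months lay close together, whereas those of 6 months lay both above and below them. The log2 fold change with age in WT was 1.83 (SE 1.11, limma adjusted p = 0.222), and 3.07 without the second sample of 6 months (limma adjusted p = 0.0226).

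In UBR4 mKO muscles Igkc was at 2.07, 7.78, 1.30 and 3.77 TPM at 6 months and at 114, 5.59, 8.43 and 30.9 TPM at 24 months. Samples 1 and 4 of 24 months were above all the others of the study. The log2 fold change with age was 2.71 (SE 1.11, limma adjusted p = 0.17) and the groups overlapped in a single pair of samples (exact permutation test, two-sided, p = 0.0571). Against WT at 24 months the log2 fold change was 1.49 (limma adjusted p = 0.736).

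Jchain followed Igkc. At 6 months it was at 0.214, 1.21, 0.130 and 0.190 TPM in WT and at 0.229, 0.831, 0.202 and 0.350 TPM in UBR4 mKO muscles. At 24 months it was at 0.365, 0.234, 0.413 and 0.410 TPM in WT and at 3.71, 0.300, 0.441 and 1.64 TPM in UBR4 mKO muscles. The high samples were again UBR4 mKO replicates 1 and 4 of 24 months and WT replicate 2 of 6 months. The groups overlapped in both comparisons of 24-month-old UBR4 mKO muscles, whose log2 fold changes were 1.29 against WT (limma adjusted p = 0.489) and 1.28 against 6 months (limma adjusted p = 0.262).

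Cd79a, the signalling chain of the B cell receptor, was at 0.114, 0.290, 0.0640 and 0.137 TPM in 6-month-old WT and at 0.216, 0.223, 0.253 and 0.201 TPM in 6-month-old UBR4 mKO muscles. At 24 months it was at 0.315, 0.0621, 0.389 and 0.209 TPM in WT and at 1.29, 0.488, 0.176 and 0.293 TPM in UBR4 mKO muscles. The first UBR4 mKO sample of 24 months was once more the highest. The log2 fold changes of 24-month-old UBR4 mKO muscles were 0.78 against WT (limma adjusted p = 0.561) and 0.76 against 6 months (limma adjusted p = 0.341).

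**Figure D3:**
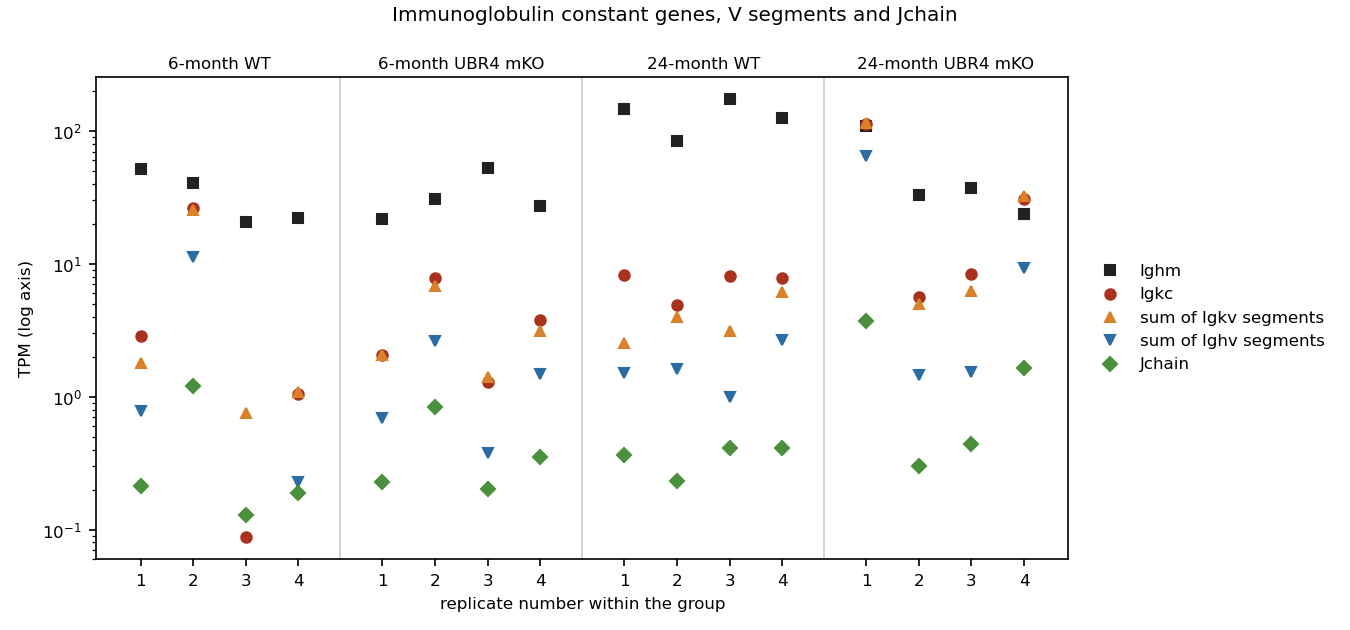
TPM on a log axis of Ighm, Igkc, Jchain and the summed Igkv and Ighv segments in each sample, by group and replicate number. The Ighv sum of 0 in 6-month WT replicate 3 is not drawn. Igkc, the V segment sums and Jchain were high together in 6-month WT replicate 2 and in 24-month UBR4 mKO replicates 1 and 4, and Ighm lay above Igkc in 14 of 16 samples.

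Igkc and Jchain had a Pearson r of 0.893 across the 16 samples on the log2 scale (permutation p = 1e-05, the smallest the test can give, adjusted over 6 pairs 6e-05) and a Spearman rho of 0.95 (permutation p = 1e-05). Without the 2 samples farthest from the median of Igkc r was 0.891, and for deviations from the group means it was 0.9. This was the closest of the 6 pairs compared. Cd3e and Cd3g had an r of 0.627 (permutation p = 0.00824, adjusted 0.0247; rho 0.769, p = 0.00093), 0.604 without 2 samples and 0.584 within groups. Igkc and Ighm had an r of 0.422 (permutation p = 0.104, adjusted 0.157; rho 0.471, p = 0.0683), which was 0.166 without 2 samples and 0.512 within groups. For Cd79a and Ighm r was 0.364 (permutation p = 0.166; rho 0.374, p = 0.153), 0.398 without 2 samples and 0.723 within groups. For Cd8a and Nkg7 it was 0.519 (permutation p = 0.0376, adjusted 0.0752; rho 0.553, p = 0.0286) and 0.324 without 2 samples, so this relation rested on those samples. For Ptprc and Cd3e it was 0.369 (permutation p = 0.16, adjusted 0.166; rho 0.52, p = 0.042), 0.598 without 2 samples and 0.0762 within groups.

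The V segments of the kappa chain were summed and set beside Igkc. Their summed level was 0.308 to 1.07 times that of Igkc in 15 samples, with a median of 0.873. In 6-month-old WT replicate 3, where Igkc was lowest, the sum was 0.754 TPM and 8.6 times Igkc. The sums were 0.754 to 25.5 TPM in WT and 1.4 to 6.79 TPM in UBR4 mKO muscles at 6 months, and 2.55 to 6.17 and 4.96 to 114 TPM at 24 months. At 24 months UBR4 mKO and WT muscles overlapped in 1 pair of samples (exact permutation test, two-sided, p = 0.0571).

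In the 3 samples with the highest sums the leading kappa segment had 46.5 to 63.9% of its sum and the leading heavy segment 36.4 to 45.7%. Leading shares in the other samples were 12.9 to 51.6% and 15.9 to 50%, so the ranges overlapped. In 24-month-old UBR4 mKO replicate 1, Igkv3-2 alone had 72.7 of the 114 TPM of kappa segments, or 63.9%, and Ighv1-42 had 26.0 of the 65.1 TPM of heavy segments, or 39.9%. Igkv3-2 was at most at 2.51 TPM in the other samples and Ighv1-42 at most at 0.676 TPM. In replicate 4 of the same group Igkv8-21 had 19.4 of 32.3 TPM, or 60%, and Ighv1-63 had 3.38 of 9.3 TPM, or 36.4%. In 6-month-old WT replicate 2 Igkv1-117 had 11.9 of 25.5 TPM, or 46.5%, and Ighv5-17 had 5.1 of 11.2 TPM, or 45.7%. The 3 samples with the highest Igkc thus had different leading segments.

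Replicate 1 also had the widest set of segments, with 42 of 160 kappa segments and 33 of 185 heavy segments above 0, against 4 to 21 and 0 to 16 in the other samples. Reads of similar segments cannot be assigned with certainty. Igkv3-2 is 91.3% identical to Igkv3-5, which had 12.5 TPM in the same sample, and Igkv1-117 is 97.5% identical to Igkv1-110, which had 8.9 TPM. The nearest segments of Igkv8-21 (Igkv8-30), Ighv1-42 (Ighv1-43), Ighv1-63 (Ighv1-73) and Ighv5-17 (Ighv5-9-1) were listed at 0 in the same samples.

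**Figure D4:**
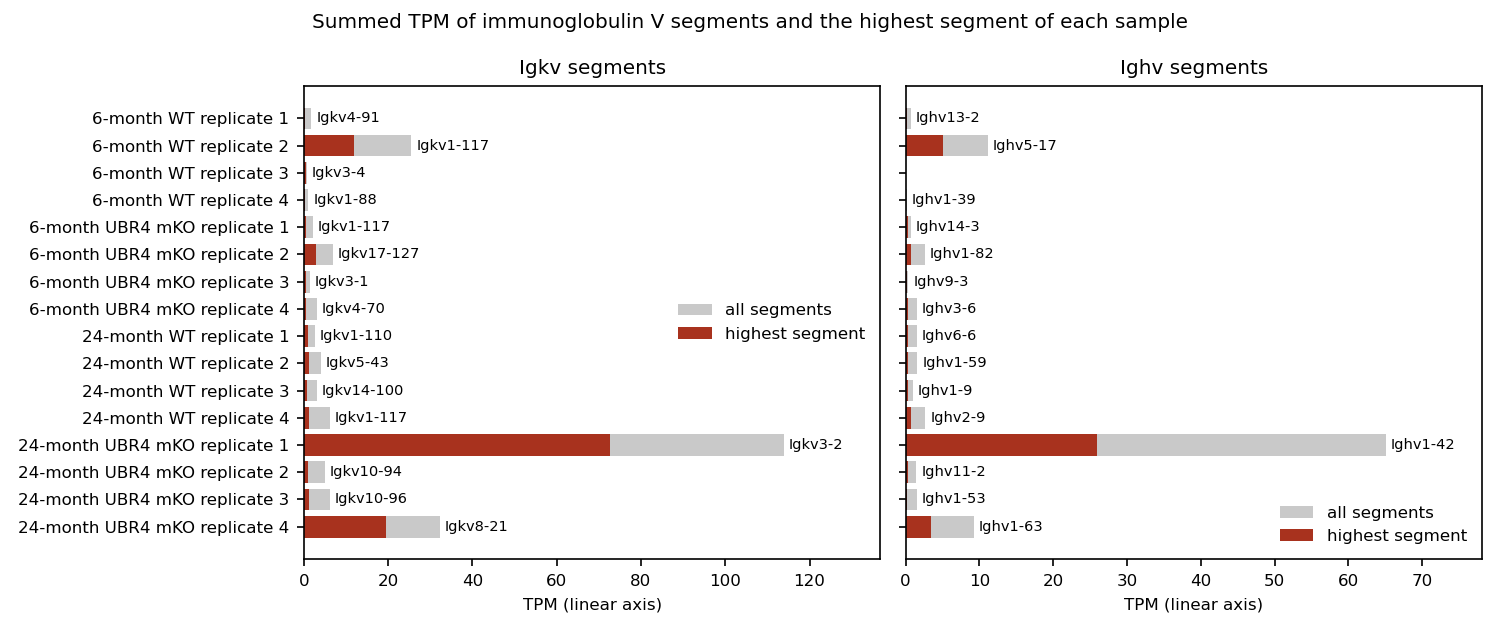
Summed TPM of the kappa (Igkv, left) and heavy chain (Ighv, right) V segments in each sample on linear axes from 0, with the highest segment in red and named. A single kappa segment made up 63.9% of the sum in 24-month UBR4 mKO replicate 1, 60% in replicate 4 and 46.5% in 6-month WT replicate 2.

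High Ighm was found both with few and with many V segment transcripts. The 24-month-old WT muscles had 84.5 to 173 TPM of Ighm with 0.993 to 2.69 TPM of heavy V segments and 4.93 to 8.28 TPM of Igkc, whereas 24-month-old UBR4 mKO replicate 1 had 110 TPM of Ighm with 65.1 TPM of heavy V segments. Per length, Ighm was 16 to 21.5 times as abundant as Igkc in 24-month-old WT muscles. In 24-month-old UBR4 mKO muscles this ratio was 0.762 to 5.85, below that of every 24-month-old WT sample, and over the samples of 6 months it ranged from 1.54 to 237. The 6-month-old WT replicate 3, with Igkc at 0.0876 TPM and heavy V segments listed at 0, still had 20.8 TPM of Ighm. Igkc over Jchain was 19.2 to 22.7 in WT and 18.6 to 30.7 in UBR4 mKO muscles at 24 months, and 0.676 to 21.8 and 6.45 to 10.8 at 6 months.

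The remaining constant genes were far below Ighm. Ighd, the IgD heavy chain of mature B cells, was at 0.0245 to 0.964 TPM and Igha, the IgA heavy chain, at 0 to 0.977 TPM. Ighg2b was at most at 0.937 TPM outside 6-month-old WT replicate 2, where it had 4.7 TPM, and Ighg1, Ighg3 and Ighe were at most at 0.301, 0.0868 and 0.0346 TPM. Of 15 further plasma cell and constant genes 10 were tested. Of these 10, Ighg2c and Iglc2 were called higher with age in UBR4 mKO muscles, where 6.49% of all genes were called. Iglc2, a constant gene of the lambda light chain, rose from 0.118 ± 0.0434 to 0.762 ± 0.504 TPM (SD, n = 4 each, limma adjusted p = 0.0348). Iglc3, another lambda constant gene, was at 0 in 3 of the 4 samples of 6 months and at 0.189 to 0.81 TPM at 24 months. It was called as well, but it passed the filter only through the group where it was highest. Over the 12 samples outside 24-month-old UBR4 mKO muscles it averaged 0.054 TPM, so its call is no support for a change and is not counted. The call of Iglc2 was lost in 12 of 26 alternatives, among them the replicate block, rescaling without mitochondrial genes and leaving out 24-month-old UBR4 mKO replicate 1, 2 or 4 or any UBR4 mKO sample of 6 months. In UBR4 mKO against WT at 24 months limma called 0 of the 10 genes (0.595% of all genes) and 5 had an unadjusted p under 0.05 (10.5% of all genes), or 2 without UBR4 mKO replicate 1. Iglc2 was then at 0 to 0.232 TPM in WT and at 0.349 to 1.5 TPM in UBR4 mKO muscles, without overlap (exact permutation test, two-sided, p = 0.0286). Irf4, a transcription factor of plasma cells, was the 1 gene of the list called at 6 months between genotypes (log2 fold change 0.59, limma adjusted p = 0.0414; 38.8% of all genes were called) but not with median-of-ratios scaling or when any 1 UBR4 mKO sample of 6 months was left out. Mzb1, a chaperone of antibody assembly, was at 1.16 and 0.997 TPM in 24-month-old UBR4 mKO replicates 1 and 4 and at most at 0.77 TPM elsewhere.

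Of 11 further B cell genes 2 passed the filter and limma called 0 in any comparison. Both had an unadjusted p under 0.05 in UBR4 mKO against WT at 24 months, against 10.5% of all genes (median log2 fold change 0.954). Without 24-month-old UBR4 mKO replicate 1 only 1 of them did (median log2 fold change 0.706). The B cell list, Cd79a included, summed to 0.462 to 0.67 TPM in WT and 0.673 to 1.41 TPM in UBR4 mKO muscles at 6 months, and to 0.611 to 1.21 and 1.37 to 4.23 TPM at 24 months. Markers of the lymph node stroma were followed because a lymph node lies behind the knee. With age in WT muscles Cxcl13, the chemokine of B cell follicles, rose from 0.0305 ± 0.0391 to 1.26 ± 0.985 TPM and Ccl21a, a chemokine of T cell zones and lymphatic vessels, from 5.88 ± 0.608 to 10.2 ± 1.16 TPM (SD, n = 4 each). With age in UBR4 mKO muscles 3 of the 3 genes tested were called, where 6.49% of all genes were, with Cxcl13 rising to 1.02 ± 0.374, Ccl21a to 12.6 ± 5.35 and Ccl19 to 0.727 ± 0.153 TPM (SD, n = 4 each). The call of Ccl21a in WT was lost in 7 of 27 alternatives, both rescalings among them, and that of Ccl19 in 10 of 26, among them leaving out any 1 of the 24-month-old UBR4 mKO samples. That of Cxcl13 in UBR4 mKO muscles was lost in 2 of 26, Dunn tests and leaving out 6-month-old UBR4 mKO replicate 3. The summed list was at 5.78 to 6.69 TPM in WT and 3.53 to 6.36 TPM in UBR4 mKO muscles at 6 months, and at 8.86 to 13.6 and 10.2 to 22.4 TPM at 24 months. The list moved with age beside Ighm and Ighg2c in WT muscles. In UBR4 mKO muscles it moved with age beside Ighg2c, while Ighm had a log2 fold change of 0.425 (limma adjusted p = 0.631). The part of the list in the values of Ighm and Ighg2c was not tested.

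Genes of other cells of blood and muscle tissue were followed as well. All 4 neutrophil genes tested were called higher with age in WT muscles, where 19.6% of all genes tested were called, S100a8 from 1.04 ± 0.211 to 4.15 ± 1.22 TPM (SD, n = 4 each), with S100a9, Csf3r and Retnlg beside it, and 3 were with median-of-ratios scaling. The call of S100a9 was lost in 9 of 27 alternatives, among them leaving out 24-month-old WT replicate 1, 2 or 4 or 6-month-old WT replicate 3 or 4. Retnlg was also called at 6 months between genotypes (0.26 ± 0.241 TPM in WT and 0.958 ± 0.561 TPM in UBR4 mKO muscles, SD, n = 4 each). It was the 1 of the 4 genes called there, against 38.8% of all genes. This call was lost in 5 of 26 alternatives, among them both rescalings and leaving out UBR4 mKO replicate 1. Of 5 mast cell genes 1 (Mcpt4) was called higher with age in WT and 3 (Cma1, Mcpt4 and Tpsb2) in UBR4 mKO muscles, against 19.6% and 6.49% of all genes. Between genotypes at 6 months 1 of the 5 (Kit) was called, against 38.8% of all genes (limma adjusted p = 0.0487). The call of Kit was lost in 17 of 26 alternatives, among them both rescalings and leaving out UBR4 mKO replicate 1, 2 or 3 or any WT sample of 6 months, and the median log2 fold change of the mast cell genes was 0.209, and -0.104 with median-of-ratios scaling. The call of Mcpt4 in WT was lost in 8 of 27 alternatives, both rescalings among them, and those of Cma1 and Tpsb2 in 5 of 26 and 6 of 27. Without 24-month-old UBR4 mKO replicate 1 the age counts were 3 in WT and 2 higher and 1 lower in UBR4 mKO muscles. Of 5 genes of red blood cells tested limma called 0 in any comparison, but with age in UBR4 mKO muscles 4 had an unadjusted p under 0.05, against 20.3% of all genes (median log2 fold change 0.608), and 1 was called without 24-month-old UBR4 mKO replicate 1. The list had summed levels of 807 to 1110, 578 to 944, 918 to 1270 and 753 to 2070 TPM in the 4 groups in the order given. The 8 myofiber genes, the defining markers of the tissue, summed to 76500 to 85700 TPM in 6-month-old WT muscles and to 92800 to 109000 TPM in the other groups. Of these 8 genes 5 were higher in UBR4 mKO muscles at 6 months (1 with median-of-ratios scaling), and 7 were higher and 1 lower with age in WT muscles (1 and 1), against 38.8% and 19.6% of all genes tested. Their part in the values of Ptprc and Ighm was not tested.

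The counts of changed genes are read against those over all genes tested. In UBR4 mKO against WT at 6 months 1 of the 6 genes tested was called (Ptprc), where 38.8% of all genes tested were. Between groups 1 of these 6, and 1 of all 10, did not overlap, where 36.7% of the genes tested did not. At an unadjusted p under 0.05 there was also 1 of 6, against 50.8% of all genes. At 24 against 6 months in WT, 2 of 6 were called (Ptprc and Ighm) against a background of 19.6%. The same 2 of 6, and 2 of all 10, did not overlap, against 23.6% of the genes tested. At an unadjusted p under 0.05 there were 3 of 6 (Nkg7 in addition), against 38.8%. In UBR4 mKO against WT at 24 months limma called 0 of 6 against 0.595%, with 1 (Ighm) at an unadjusted p under 0.05 against 10.5%, and 0 of 10 did not overlap against 5.83%. At 24 against 6 months in UBR4 mKO muscles limma called 0 of 6 against 6.49%, with 1 (Igkc) at an unadjusted p under 0.05 against 20.3%, and 0 of 10 did not overlap against 13.1%. In the interaction of genotype and age limma called 0 of 6 against 3.51%, with 1 (Ighm) at an unadjusted p under 0.05 against 27.4%. Kruskal-Wallis and Dunn tests called 0 of 6 in each of the 4 pairwise comparisons. Over all 14453 genes they called 2266 in UBR4 mKO against WT at 6 months. In each other comparison they called 0 of all genes, so 0 of 6 there says nothing about these genes.

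**Figure D5:**
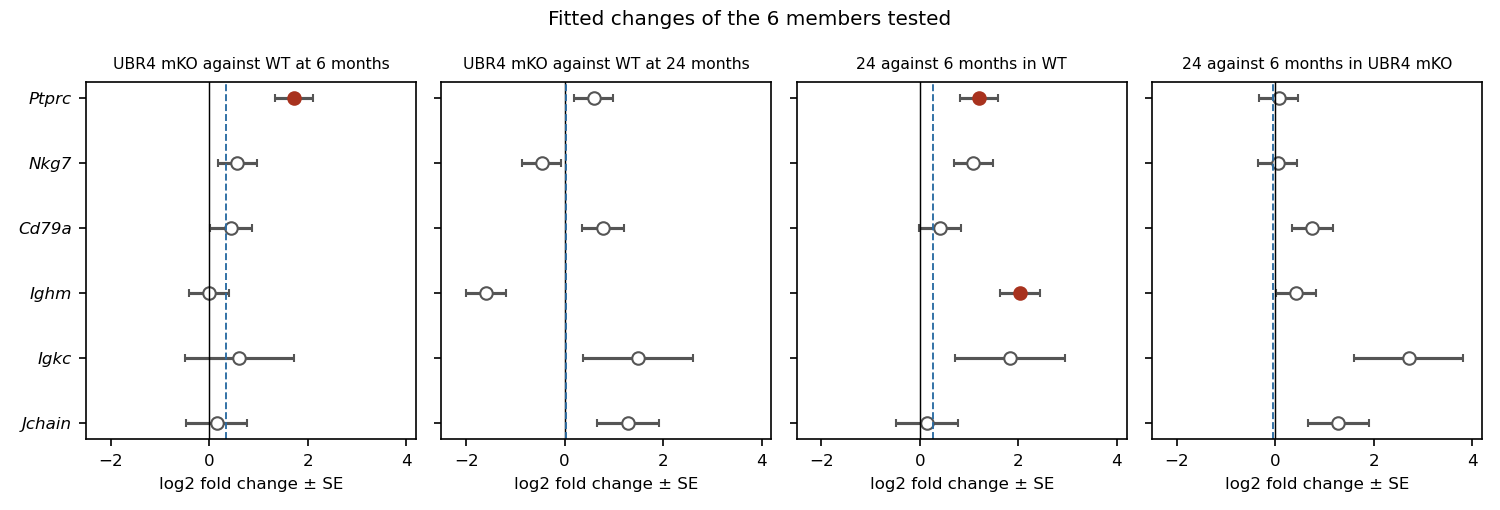
Log2 fold changes with standard errors, on the log2(TPM + 0.1) scale, of the 6 genes tested in the 4 pairwise comparisons. Filled points were called by limma at an adjusted p under 0.05, open points were not, and dashed lines mark the median of all genes tested. Ptprc was called in UBR4 mKO against WT at 6 months (1.72), and Ptprc (1.2) and Ighm (2.03) at 24 against 6 months in WT.

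The genes most like each of the 10 over the 16 samples were picked by Pearson r on the log2 scale from all genes tested, so their values describe that choice. Those of Ptprc were Ptpn6, a phosphatase of blood cells (r = 0.975), Mpeg1, a pore protein of macrophages (0.972), and Arhgap30 (0.969). Those of Ighm were Gdap1, a mitochondrial membrane protein (0.911), Extl2 (0.883) and Ky, a muscle protein (0.867), and none of the 3 is an antibody gene. Igkc was most like Pir (0.849), Asb14 (0.848) and Mzb1 (0.847), and Jchain most like Iglv1 (0.819), a lambda V segment, Zfp78 (0.816) and Pip5k1b (0.804). Cd4 was most like Gvin1 (0.914), Samd9l (0.884) and Bst2 (0.845), which are induced by interferon. The leading genes of the others were Ctsc for Cd79a (0.87), Zfp951 for Cd3e (0.844), Gbp8 for Cd8a (0.84), Rnase6 for Nkg7 (0.812) and Nmi for Cd3g (0.759).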

How the data were processed

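Tibialis anterior RNA in 16 samples was sequenced. The authors trimmed and filtered paired-end reads, aligned them to GRCm38 (mm10 in the submitters' processing notes) and deposited TPM values made with CLC Genomics Workbench. How multiply matching reads were counted is not given in the sources used here. The labels name a stranded mRNA kit and the methods another TruSeq kit. Within a group the samples correlated at 0.971 to 0.991 over genes, and no pair was identical. The limma fit (version 3.58.1 in R 4.3.3) had a coefficient per group, a variance trend and no covariate, a pseudocount of 0.1 TPM and a filter of 0.1 TPM on the mean, set low to keep these genes. The usual filter of 1 TPM was an alternative. The fit was tested on simulated data. Permutation tests (SciPy 1.17.1) used all 70 assignments of 4 against 4 samples, and correlations 100000 resamples. The methods call replicates muscles of separate mice, but the number they state per group is below the 4 deposited samples, all of which were used.

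The genes, lists and tests were chosen with earlier results of these data known. Named are the 10 genes, the called genes of each list (the 3 with the largest change where over 5 were called), the 3 most similar genes and Ubr4. Other constant genes, Mzb1 and the V segments were added after their values were seen. Positions and sequences are from GENCODE vM21 on GRCm38. Igkc, Cd3e and Ptprc overlap noncoding genes there.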

Additional observations from a re-analysis of the deposited data

Results flagged for a closer look

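Over 52 groups of 4 values (the 10 genes and 3 sums of V segments in 4 groups), 10 values stood apart from their group by Dixon's test at the 95% level. Chance gives about 2.6 for separate, normally distributed values. These are TPM values with zeros among them, several from the same sample, so these counts cannot be set against each other. In 24-month-old UBR4 mKO replicate 1 these were Ighm at 110 TPM (others 23.5 to 37.3), the Ighv sum at 65.1 TPM (others 1.46 to 9.3) and the sum of T cell receptor V segments at 1.51 TPM (others 0.123 to 0.265). In 6-month-old WT replicate 2 they were Igkc at 26.4 TPM, Jchain at 1.21 TPM, the Igkv sum at 25.5 TPM and the Ighv sum at 11.2 TPM, with the next highest WT sample of that age at most at 2.89 TPM for any of them. Ptprc was at 1.66 TPM in 6-month-old UBR4 mKO replicate 1 (others 0.347 to 0.526), Igkc was low, at 4.93 TPM, in 24-month-old WT replicate 2, and Cd3e was listed at 0 in 6-month-old UBR4 mKO replicate 3 (others 0.0324 to 0.0365).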

How the results depend on the processing

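The log2 fold changes of the 10 genes in the text were computed under the alternatives in 495 cases, of which 472 kept their direction and their side of the threshold, 16 lost a call, 6 gained one and 1 reversed. Of the lost calls 14 were those of Ptprc with age in WT (adjusted p from 0.0511 to 0.181 with limma and 0.218 with Dunn tests), of which 8 came from leaving out a sample, and the other 2, of Ptprc at 6 months (0.0555) and Ighm with age in WT (0.136), came with Kruskal-Wallis and Dunn tests. Gained calls were those of Nkg7 with age in WT (array weights 0.00654, only the groups compared 0.0373, without 24-month-old UBR4 mKO replicate 4 0.0385), Igkc and Ighm as given above. Ighm with age in UBR4 mKO muscles ranged from -0.0352 to 0.704 when 1 sample was left out.

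Counts over all genes, which give the background percentages, moved more, and except where stated the cause was not tested. In UBR4 mKO against WT at 6 months 5601 genes were called (5450 higher, 151 lower), 2099 with median-of-ratios scaling (984 higher, 1115 lower), 1927 when rescaled without mitochondrial genes (1277 higher, 650 lower), 2266 with Dunn tests and 3074 to 7192 when 1 sample was left out (lowest without WT replicate 4). At 24 months 86 were called (52 higher, 34 lower), 259 with array weights, 43 with no filter, 48 with no variance trend, 9 with only the groups compared, 0 with Dunn tests (643 at an unadjusted p under 0.05, against 1522 with limma) and 27 to 94 when 1 sample was left out (lowest without WT replicate 1). The split was 53 higher and 65 lower with median-of-ratios scaling and 38 higher and 43 lower when rescaled without mitochondrial genes. With age in WT 2840 were called (2684 higher, 156 lower), 1234 with median-of-ratios scaling (615 higher, 619 lower), 1210 without mitochondrial genes (747 higher, 463 lower), 6571 with array weights, 0 with Dunn tests (3432 unadjusted) and 1083 to 5141 when 1 sample was left out (6-month-old WT replicates 4 and 2). With age in UBR4 mKO muscles 938 were called (356 higher, 582 lower), 1481 with median-of-ratios scaling (751 higher), 1820 with array weights (892 higher), 593 with only the groups compared, 0 with Dunn tests (1696 unadjusted) and 547 to 1040 when 1 sample was left out (lowest without 6-month-old UBR4 mKO replicate 3). The interaction called 508 (15 higher, 493 lower), 203 with median-of-ratios scaling (90 higher), 223 without mitochondrial genes (68 higher), 299 with no filter, 2382 with array weights and 204 to 2274 when 1 sample was left out (24-month-old WT replicate 1 and 6-month-old WT replicate 2).

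With the replicate number as a block the interaction called 286 genes, UBR4 mKO against WT at 24 months 58, and no call of the 10 genes changed. Deviations from the group means of same-numbered samples correlated at -0.193 to 0.137 in 24 pairs, 2 of them over 0.1. Those of differently numbered samples correlated at -0.189 to 0.26 in 72 pairs, 5 of them over 0.1. Same-numbered samples were thus no more alike, but such correlations cannot exclude that the numbers mark litters or batches.

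Within groups, r was 0.512 for Igkc and Ighm (permutation p = 0.0433) and 0.723 for Cd79a and Ighm (p = 0.00171). That of Cd8a and Nkg7 fell to 0.393 within groups, 0.324 without 2 samples, 0.466 with median-of-ratios scaling and 0.33 with a pseudocount of 0.01, and that of Ptprc and Cd3e was 0.598 without 2 samples. The filter of 1 TPM leaves only Ighm and Igkc of the 10 genes. The unknown read depth limits what the values near 0 can show.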
